A study of Homo sapiens with 4 samples.

Results

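The HOX genes lie in 4 clusters on chromosomes 7 (HOXA), 17 (HOXB), 12 (HOXC) and 2 (HOXD), and the peaks that fell inside these clusters are described here. They were chosen by position alone. A peak was included when at least 1 bp of it lay inside a cluster, with the bounds chr7:27132612-27240000, chr17:46606807-46806111, chr12:54332576-54449814 and chr2:176957532-177055635 of the genome build hg19. Of the 47930 peaks in the 0 Gy list, 20 lay in a HOX cluster, and of the 36216 peaks in the 5 Gy list, 14 did, so that 34 of 84146 peaks were included in all.

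The peaks came from WS1, a human skin fibroblast line. RNA bound to HuR, the AU-rich element binding protein encoded by ELAVL1, was recovered by immunoprecipitation and sequenced (RIP-seq), together with RNA recovered with control immunoglobulin (IgG). This was done in unirradiated cells (0 Gy) and in cells given 5 Gy of X-rays, with 1 HuR and 1 IgG library per dose, 4 libraries in all. The labels state neither the time between irradiation and harvest nor any other treatment. Each dose has a single list of peaks, in which HuR was set over IgG, so there is no replicate check on any difference between doses and no p-value is given. A lower peak in such bulk RNA can mean fewer cells with a transcript, less of it per cell or less of it on HuR, and these cannot be told apart here.

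HOX proteins are homeodomain transcription factors that give cells their position along the body axis. Within each cluster the genes stand in the order in which they are used from head to tail. Low-numbered (anterior) genes such as HOXA2, HOXB1 and HOXD1 act in the hindbrain and neck, and high-numbered (posterior) genes such as HOXA13, HOXC13 and HOXD13 act in the hindquarters and the ends of the limbs. Skin fibroblasts keep part of this code in culture, and which HOX genes they transcribe is known to differ with the site they came from. The site on the body from which WS1 was taken is not stated in the labels. The HOXC cluster also encodes HOTAIR, a long noncoding RNA described in fibroblasts and known for its association with repressive chromatin at the HOXD cluster.

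The 39 genes listed for the clusters all matched RefSeq (GRCh38.p14) by symbol, 10 in HOXA, 10 in HOXB, 10 in HOXC with HOTAIR and 9 in HOXD. The RefSeq table was of another build than the peaks, so it gave the order of the genes and no positions, and no peak was joined to a gene. The peaks are therefore placed between the anterior and the posterior end of a cluster, that is, between the HOXA2 and HOXA13 sides, the HOXB1 and HOXB13 sides, the HOXC4 and HOXC13 sides and the HOXD1 and HOXD13 sides. The part on each side of a cluster's midpoint is called its anterior or posterior part. The midpoint is a place on the map and does not separate given genes. By RefSeq, 22 long noncoding RNA genes lie among the listed HOX genes, HOTAIR, HOXA11-AS, HOXB-AS3 and HAGLR among them. The peak lists carry no strand, so RNA of a HOX gene and of a partner on the opposite strand could not be told apart.

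The clusters also hold microRNA genes whose place marks the same order, and these short sequences are shown as landmarks of what anterior and posterior mean here. By RefSeq order, MIR10A lies between HOXB4 and HOXB5, toward the anterior side. The miR-196 genes lie further toward the posterior side, MIR196B between HOXA9 and HOXA10, MIR196A2 between HOXC9 and HOXC10 and MIR196A1 between HOXB9 and HOXB13. Mature sequences are RefSeq's (GRCh38.p14), with the seed (bases 2 to 8) in capitals. The 5p products of the miR-196 genes, printed here, share 1 seed, and that of miR-10a-5p is another. No genome of the build of the peaks was at hand, so the sequence under the peaks is not shown.
hsa-miR-10a-5p: uACCCUGUagauccgaauuugug
hsa-miR-196a-5p: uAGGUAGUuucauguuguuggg
hsa-miR-196b-5p: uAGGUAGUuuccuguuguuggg

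The peaks formed a few islands in each cluster and left most of each cluster without a peak at both doses. At 0 Gy there were 7 peaks in HOXA, 4 in HOXB, 4 in HOXC and 5 in HOXD, and at 5 Gy there were 7, 2, 3 and 2. They covered 16.77 kb, or 3.21% of the 522.0 kb of the clusters, at 0 Gy, and 11.23 kb, or 2.15%, at 5 Gy. Per 100 kb, the clusters held 3.83 peaks at 0 Gy and 2.68 at 5 Gy, against 1.6 and 1.21 between the first and last peaks of all chromosomes. HOXA was the densest cluster at both doses, with 6.52 peaks per 100 kb at each, against 1.64 and 1.23 on chromosome 7. HOXB was the sparsest, with 2.01 and 1.0 against 3.26 and 2.45 on chromosome 17, so it lay below its own chromosome while HOXA, HOXC and HOXD lay above theirs. These chromosome values are over the whole span from first to last peak, and regions of like gene density were not compared.

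**Figure D1:**
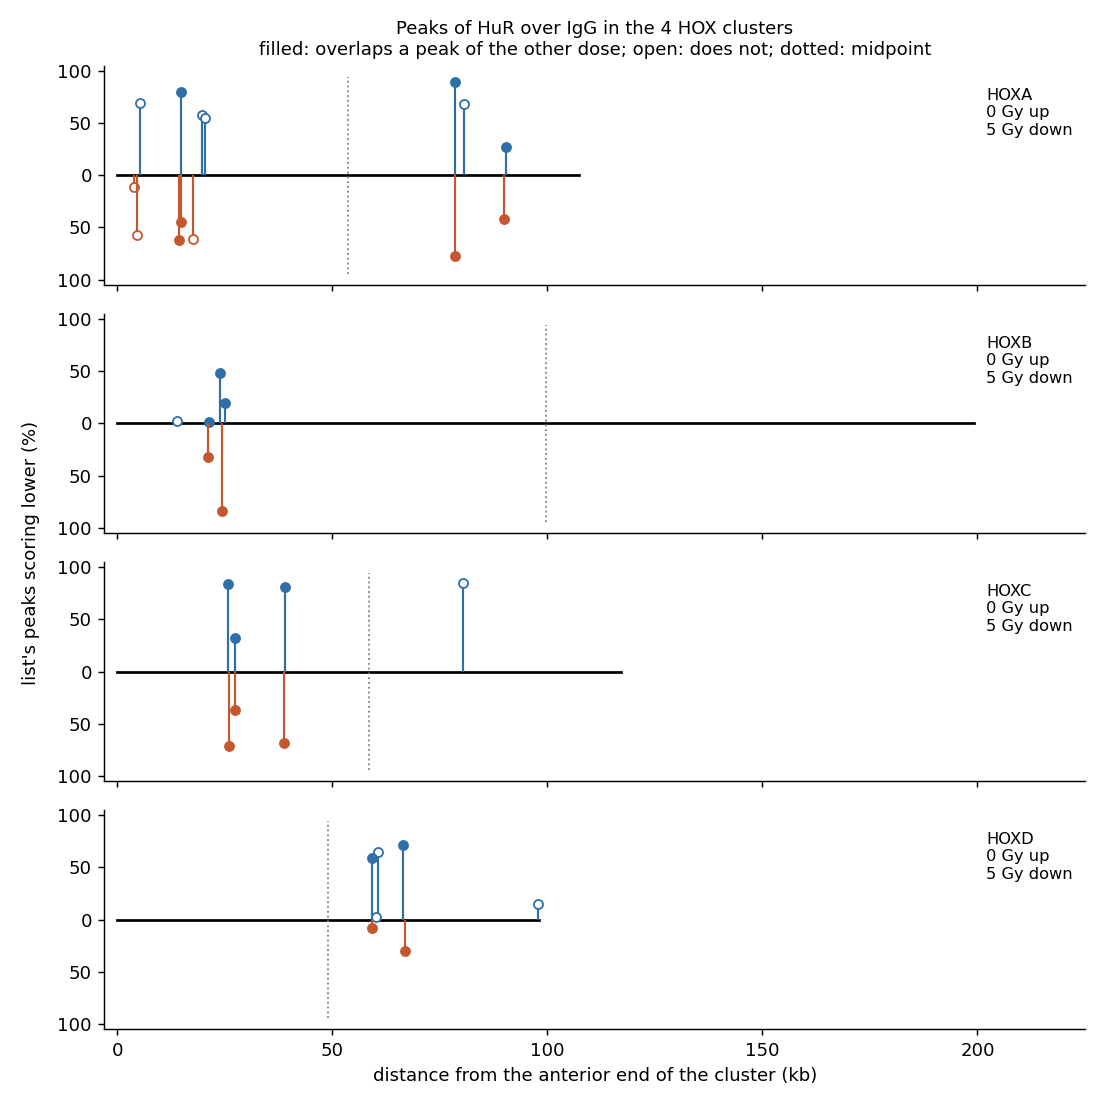
Each panel is a cluster, drawn in kb from its anterior end. Stems mark peak midpoints at 0 Gy (up) and 5 Gy (down), and their height is the percentage of the peaks of the same list that score lower. Open circles mark peaks that overlap no peak of the other dose. The posterior part of HOXB and the anterior part of HOXD are empty at both doses, and the posterior part of HOXC has 1 peak, at 0 Gy.

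In number, the HOX peaks of the 5 Gy list came to 70% of those of the 0 Gy list (exact 95% binomial interval 32.7 to 146, counting error only), close to the 75.6% of the lists as a whole. The covered length came to 67.0% of that at 0 Gy, against 91.7% for the lists. This differed between clusters. The HOXB peaks covered 2.84 kb at 0 Gy and 3.19 kb at 5 Gy, that is 113%, although they numbered 4 and 2. The HOXA peaks covered 7.46 and 5.11 kb (68.5%), the HOXC peaks 3.53 and 2.0 kb (56.5%) and the HOXD peaks 2.94 and 0.94 kb (31.9%). HOXB was thus the only one of the 4 clusters with more covered length at 5 Gy than at 0 Gy.

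Anterior and posterior parts differed in what they covered at 5 Gy. The anterior parts held 11 peaks at 0 Gy, covering 8.45 kb, and 10 at 5 Gy, covering 8.04 kb, or 95.1%. The posterior parts held 9 peaks at 0 Gy, covering 8.32 kb, and 4 at 5 Gy, covering 3.20 kb, or 38.4%. The covered length was lower at 5 Gy in each of the 3 posterior parts that had a peak. It was 4.0 and 2.26 kb on the HOXA13 side of HOXA (56.5%), 1.38 and 0 kb on the HOXC13 side of HOXC, and 2.94 and 0.94 kb on the HOXD13 side of HOXD. In HOXD, most of the peaks on this side lay nearer the midpoint than the HOXD13 end. The HOXB13 side of HOXB had no peak at either dose. Of the anterior parts, the HOXA2 side of HOXA covered 3.46 and 2.85 kb (82.3%), the HOXB1 side of HOXB 2.84 and 3.19 kb, and the HOXC4 side of HOXC 2.15 and 2.0 kb (92.7%). The HOXD1 side of HOXD had none. In the totals, part and cluster cannot be told apart, since HOXB had peaks only in its anterior part and HOXD only in its posterior part. HOXA and HOXC had peaks in both parts. In each of them the posterior part kept the smaller share of its 0 Gy length, in HOXC by the absence of 1 peak. The order of the doses in the anterior parts was not stable. Among peaks with scores of at least 100 these parts covered 5.83 kb at 0 Gy and 6.55 kb at 5 Gy, and without HOXA 4.99 and 5.19 kb. Such values vary widely over the genome. Among 8277 windows of 50 kb with at least 1 kb covered at 0 Gy, the 5 Gy length was 93.2% of the 0 Gy length at the median, with 68.7% at the lower quartile and 35.1% at the tenth percentile. The posterior part of HOXA lay between the last 2 of these values, and those of HOXC and HOXD lay below both.

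**Figure D2:**
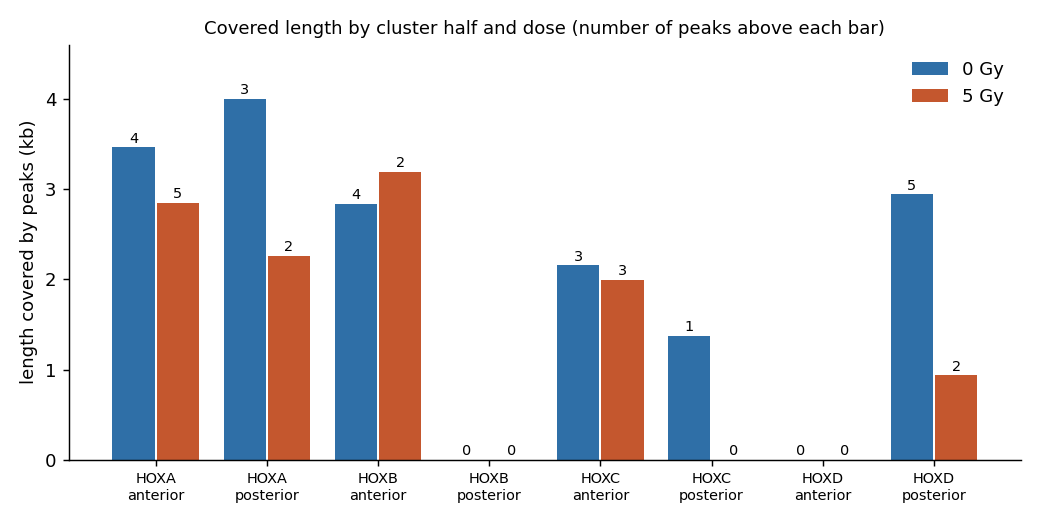
Bars give the length covered by peaks (kb) in the anterior and posterior part of each cluster at 0 Gy and 5 Gy, with the number of peaks above each bar. There is 1 list per dose, so there are no error bars. The posterior parts of HOXA, HOXC and HOXD have shorter bars at 5 Gy, and HOXB has the one taller bar at 5 Gy.

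HOXA held the HOX peak with the highest score at 0 Gy, on its posterior side. The scores are the authors' own and start at 60 in both lists. They grow with depth, which is unknown here, so a score is read by its rank, the percentage of peaks of the same list that score lower. The peak chr7:27210162-27212192 (2031 bp, 78.6 kb from the anterior end) had a score of 1158.34 at 0 Gy, above 88.9% of its list. It was the only HOX peak at either dose with a score of at least 1000. The 5 Gy peak chr7:27210229-27211993 (1765 bp) lay wholly inside it, with a score of 448.22, above 77.5% of its list, and was the highest of the HOXA peaks at that dose too. Next to it at 0 Gy, 542 bp away, stood chr7:27212735-27213984 (1250 bp, score 252.98, rank 68.5%), and this peak overlapped none at 5 Gy, where the nearest was 741 bp away. The third island of this side, 90.4 kb (0 Gy) and 90.0 kb (5 Gy) from the anterior end, had a low rank at both doses, with 717 bp and a score of 85.09 (27.0%) at 0 Gy and 494 bp and 119.15 (42.2%) at 5 Gy. These peaks, chr7:27222647-27223363 and chr7:27222321-27222814, shared 168 bp.

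The anterior side of HOXA had peaks at both doses in the same stretch, but few lay on each other. The island in its middle was the peak chr7:27146652-27147895 at 0 Gy (1244 bp, score 472.86, rank 79.6%). At 5 Gy it was split into chr7:27146652-27147201 (550 bp, 206.53) and chr7:27147231-27147751 (521 bp, 126.30), which stand 29 bp apart, the first of them starting at the same base as the 0 Gy peak. Toward the anterior end there was 1 peak at 0 Gy, chr7:27137486-27138326 (841 bp, 256.66, rank 68.9%). The 5 Gy list had chr7:27136066-27136674 (609 bp, 68.69) and chr7:27136815-27137310 (496 bp, 179.99) there, the nearer of them 175 bp from the 0 Gy peak. On the other side, the 0 Gy list had the neighbours chr7:27151748-27152630 (883 bp, 172.20) and chr7:27152665-27153159 (495 bp, 157.85), 34 bp apart. The 5 Gy list had chr7:27149733-27150405 (673 bp, 205.01), 1342 bp away from the nearer one. Between the islands of the HOXA2 and HOXA13 sides lay 57.0 kb, 53.1% of the cluster, with no peak in either list.

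**Figure D3:**
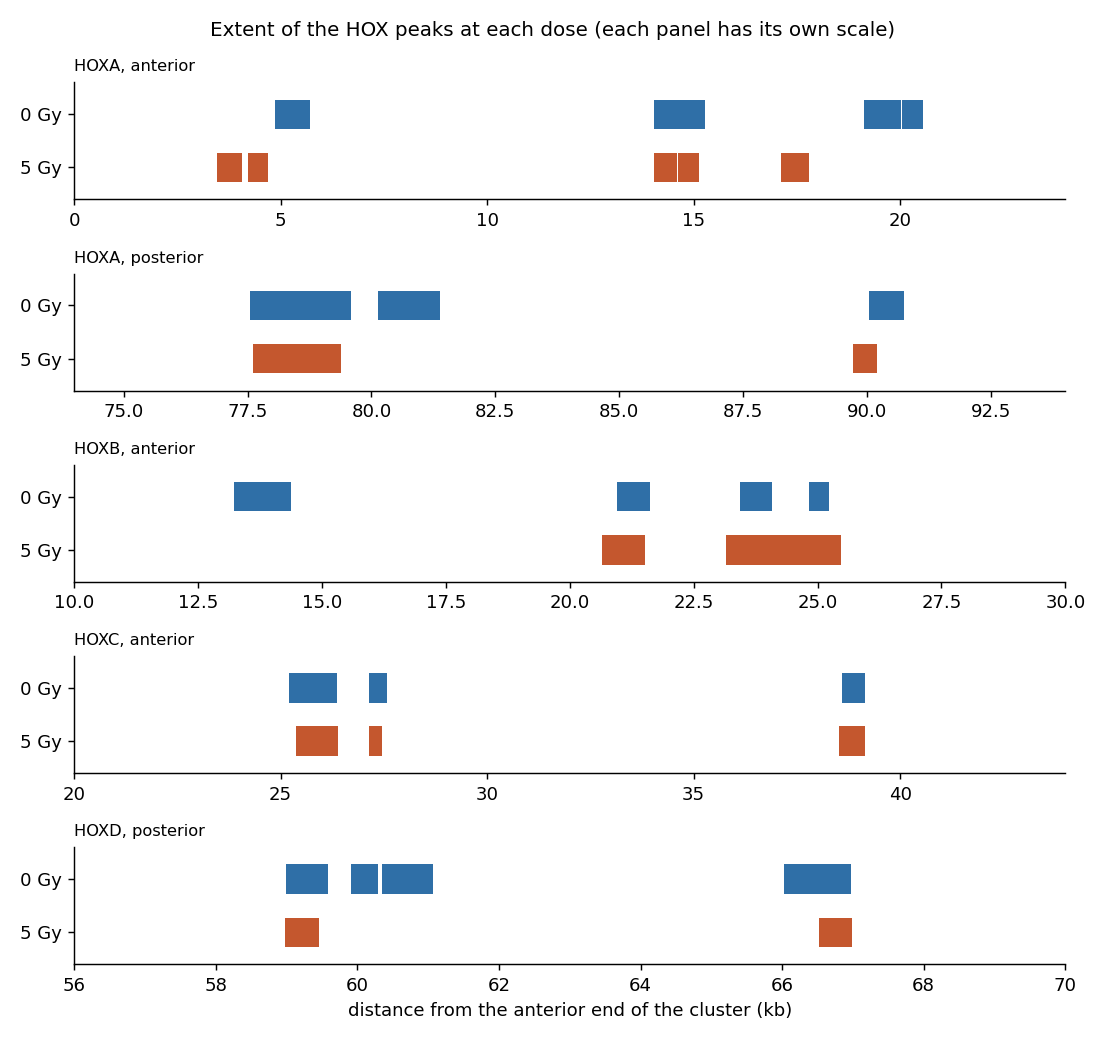
Bars show the extent of each peak at 0 Gy and 5 Gy in 5 stretches of the clusters, in kb from the anterior end, each panel with its own scale. On the anterior side of HOXA the middle island overlaps between the doses and the outer ones lie beside each other, in HOXB 1 peak at 5 Gy spans 2 at 0 Gy, and in HOXC the peaks of both doses lie on each other.

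In HOXB, every peak lay on the HOXB1 side, the midpoints at 0 Gy between 13.8 and 25 kb from the anterior end. At 0 Gy the peaks had low scores. They were chr17:46620039-46621176 (1138 bp, 61.52), chr17:46627760-46628429 (670 bp, 60.94), chr17:46630242-46630880 (639 bp, 131.02) and chr17:46631644-46632032 (389 bp, 75.48), with ranks of 2.0%, 1.3%, 48.1% and 19.2%. At 5 Gy, a single peak of 2310 bp, chr17:46629964-46632273, spanned the last 2 of them. Its score of 744.45, above 84.0% of its list, was the highest of any HOX peak at 5 Gy, and it was also the longest HOX peak of both lists. It held all 1028 bp of the pair at 0 Gy. The other 5 Gy peak, chr17:46627452-46628334 (883 bp, 95.40, rank 31.9%), shared 575 bp with the second of the 0 Gy peaks. Only the first of the 4 peaks at 0 Gy had no overlap, with the nearest 5 Gy peak 6275 bp away, and its score was just above the minimum of 60. Past these peaks, 173.8 kb of HOXB up to its HOXB13 end, 87.2% of the cluster, had no peak at either dose.

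In HOXC, the 3 islands of the HOXC4 side were present at both doses, and the strongest peak of the cluster, on the HOXC13 side, was in the 0 Gy list alone. That peak, chr12:54368805-54370181 (1377 bp, 80.3 kb from the anterior end), had a score of 718.44, above 84.6% of its list, with 40491 bp to the closest peak at 5 Gy. Among all 0 Gy peaks scoring from 500 to under 1000, 3583 in number, 3.04% overlapped no 5 Gy peak. On the anterior side, chr12:54423439-54424605 (1167 bp, 654.23) at 0 Gy shared 1012 bp with chr12:54423415-54424450 (1036 bp, 311.61) at 5 Gy. The peaks chr12:54410663-54411221 (559 bp, 515.52) and chr12:54410673-54411306 (634 bp, 268.64) shared 549 bp and started 10 bp apart. A weaker pair, chr12:54422238-54422664 (427 bp, 92.54) and chr12:54422351-54422676 (326 bp, 106.28), shared 314 bp. In RefSeq, HOXC4, HOXC5 and HOXC6 overlap each other, so peaks on this side need not belong to 1 gene. In the 5 Gy list, the 78.1 kb from the HOXC13 end inward, 66.6% of the cluster, had no peak.

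In HOXD, the peaks lay on the HOXD13 side of the midpoint and ranked lower at 5 Gy. Apart from a short peak at the HOXD13 end, they lay from 60.4% to 68.0% of the way from the anterior end. They were thus nearer the midpoint of the cluster than its HOXD13 end. At 0 Gy, 3 neighbouring peaks stood between 59.3 and 60.7 kb from the anterior end, chr2:176994570-176995281 (712 bp, 215.61), chr2:176995350-176995720 (371 bp, 61.73) and chr2:176996043-176996648 (606 bp, 179.80). At 5 Gy only the last of them had a counterpart, chr2:176996180-176996655 (476 bp, 66.05), whose rank was 8.0% against 59.5% at 0 Gy. This stretch held 1.69 of the 2.94 kb covered in HOXD at 0 Gy, and 0.48 of the 0.94 kb at 5 Gy. The strongest HOXD peak at both doses was chr2:176988660-176989609 at 0 Gy (950 bp, 287.83, rank 71.2%) and chr2:176988649-176989110 at 5 Gy (462 bp, 91.55, rank 29.8%), which shared 451 bp. A short peak within 0.1 kb of the HOXD13 end of the cluster, chr2:176957639-176957943 (305 bp, 71.72), was in the 0 Gy list alone. The 59.0 kb from the HOXD1 end, 60.1% of the cluster, had no peak at either dose.

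Peaks of the doses overlapped in 10 places, and their ranks differed in different directions in different clusters. In 6 places the rank was lower at 5 Gy and in 4 it was higher. Both HOXB places had a higher rank at 5 Gy, by 30.5 and 35.9 points, and both HOXD places a lower one, with differences (5 Gy minus 0 Gy) of -41.4 and -51.5 points. In HOXA the differences were -18.0, -11.4 and 15.2, and in HOXC they were -12.6, 5.2 and -12.4. Over the 19750 places in the lists where a single peak of each dose lay against the other, the median difference was -3.6 points, with -45.5 at the fifth and 29.5 at the 95th percentile. The rank was lower at 5 Gy in 13901 of them (70.4%), and in 5 of the 8 HOX places of this kind (62.5%), so a lower rank was no more frequent in the HOX clusters than in the lists. Of these 8 places, those at -51.5 (HOXD) and 30.5 (HOXB) lay outside that range. This HOXB place had a rank of 1.3% at 0 Gy, so its rank could hardly be lower at 5 Gy. It was not compared with places of like rank. The 5 Gy peak was the longer one in 2 of these 8 HOX places (25%), against 58.3% in the lists.

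**Figure D4:**
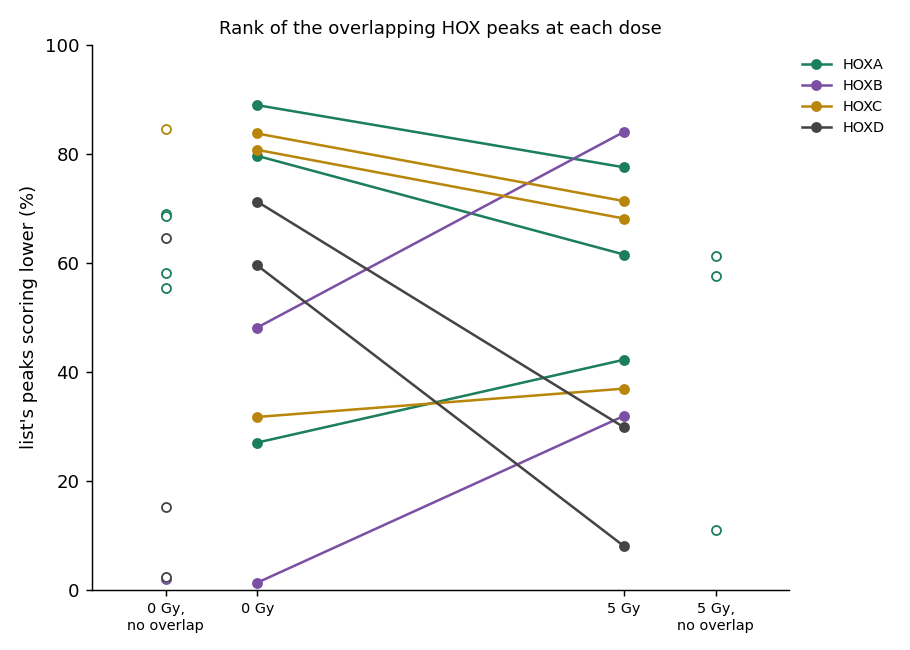
Lines join the rank at 0 Gy and at 5 Gy (percentage of the same list's peaks that score lower) in the 10 places where HOX peaks overlap, using the highest-scoring peak where there are 2. Open circles are peaks with no overlap. Both HOXB lines go up, by 30.5 and 35.9 points, and both HOXD lines go down.

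Of the 20 HOX peaks at 0 Gy, 11 (55.0%, exact 95% binomial interval 31.5 to 76.9) overlapped a 5 Gy peak, against 58.1% of all 0 Gy peaks. Of the 14 at 5 Gy, 11 (78.6%, interval 49.2 to 95.3) overlapped a 0 Gy peak, against 73.0% of all 5 Gy peaks. With all peaks counted, both shares were near those of the lists. At scores of at least 100 in both lists, they were lower than those of the lists. The share was then 38.5% of 13 HOX peaks at 0 Gy, against 64.1%, and 60% of 10 at 5 Gy, against 78.9%. With the same number of top-scoring peaks from each list, it was 60% against 68.3% at 0 Gy and 71.4% against 67.0% at 5 Gy. By length, 7402 bp lay in peaks of both doses when all peaks were counted. This was 44.1% of the HOX length at 0 Gy, below the 67.5% of the 0 Gy list, and 65.9% of that at 5 Gy, against 73.6% of the 5 Gy list.

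Among the stronger peaks the HOX clusters stood further from the lists. A score of at least 150 was reached by 12 of the 20 HOX peaks at 0 Gy (60%, interval 36.1 to 80.9), against 46.5% of the list, and by 7 of the 14 at 5 Gy (50%, interval 23.0 to 77.0), against 48.5%. Of those 12, 6 overlapped no 5 Gy peak (50%, interval 21.1 to 78.9), against 15.2% of all 0 Gy peaks with such a score. They were 4 peaks of HOXA, the posterior peak of HOXC and 1 peak of HOXD. In the 0 Gy list the unmatched share fell with score and was 0.477% at scores of at least 1000. At scores from 150 to under 200 it was 38.8%, with 2 of 3 HOX peaks unmatched. From 200 to under 300 it was 24.6%, with 3 of 4 HOX peaks unmatched. Of the 7 at 5 Gy, 2 overlapped no 0 Gy peak (28.6%, interval 3.67 to 71.0), against 6.65%, and both were on the anterior side of HOXA. The intervals take peaks as independent, and neighbouring peaks of 1 transcript are not. Some of these unmatched peaks had a peak of the other dose within 1 kb, and most had such a peak within 10 kb. When a peak within 1 kb also counted, 3 of the 12 at 0 Gy (25%) and 1 of the 7 at 5 Gy (14.3%) were left, against 9.90% and 3.81% of the lists. Within 10 kb, only the posterior HOXC peak was left at 0 Gy (1 of 12, 8.33%, against 3.46%) and none at 5 Gy (0 of 7, against 1.41%).

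HOX peaks were somewhat long for their list at 0 Gy. Their median length was 714.5 bp at 0 Gy (95% interval from order statistics 559 to 1138), against 448 bp for all 0 Gy peaks. At 5 Gy it was 579.5 bp (interval 476 to 1036), against 559 bp. Among peaks that overlapped the other dose, it was 670 against 591 bp at 0 Gy and 550 against 655 bp at 5 Gy. At scores of at least 100, it was 883 against 599 bp at 0 Gy and 592 against 740 bp at 5 Gy. The median rank was 58.9% (interval 27.0 to 71.2) at 0 Gy and 51.2% (interval 29.8 to 71.3) at 5 Gy, and both intervals included the 50% of the lists. It was lower, 38.3% at 0 Gy and 31.3% at 5 Gy, when only peaks that overlapped the other dose were ranked. When only peaks scoring at least 100 were ranked, it was 51.4% and 41.6%. Per cluster, the median rank at 0 Gy was 82.2% in HOXC, 68.5% in HOXA, 59.5% in HOXD and 10.6% in HOXB. At 5 Gy it was 68.1% in HOXC, 57.9% in HOXB (of 2 peaks), 57.6% in HOXA and 18.9% in HOXD (of 2 peaks). HOXC thus led at both doses, and the lowest was HOXB at 0 Gy and HOXD at 5 Gy.

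The clusters stood apart from the nearest other peaks. No peak of either list lay within 50 kb outside any cluster. The nearest peak outside HOXA was 285.4 kb away on the anterior side and 325.1 kb away on the posterior side at 0 Gy, and 423.7 and 256.0 kb away at 5 Gy. Outside HOXB the distances were 412.9 and 135.2 kb at 0 Gy and 407.6 and 131.4 kb at 5 Gy. Outside HOXC they were 124.5 and 215.0 kb at 0 Gy and 123.8 and 215.1 kb at 5 Gy. The closest neighbours were those of HOXD, 90.7 kb (anterior) and 90.3 kb (posterior) away at 0 Gy and 78.5 and 90.5 kb away at 5 Gy. On chromosome 17, the empty posterior side of HOXB and the 131.4 kb beyond it made a stretch of 305.2 kb without a peak at either dose. Of the 53650 gaps between neighbouring peaks of the merged lists, 13.5% were of at least 50 kb, and the median gap was 2.60 kb. Gaps were counted and not weighted by their length, so whether such distances are unusual for a region of this size was not tested.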

How the data were processed

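RIP-seq peak lists of WS1 cells were analysed, 1 per dose, each a HuR library over the IgG library of that dose. Per the submitters' processing notes, cutadapt 1.9.1, Bowtie2 2.2.4 and the build hg19 were used. Peak names begin with MACS; no caller version or settings were given in the sources used here. The score of each peak is the authors' peak score as deposited, and the lowest, 60.00 (0 Gy) and 60.01 (5 Gy), have the size of −10 log10 of 1e-06, a value in the list names. Library depths are unknown.

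Starts were counted from 1. Overlap (1 bp, strand ignored), covered length, ranks and gaps were computed with Python 3.11.15, numpy 2.4.6, pandas 2.3.3 and scipy 1.17.1. Overlap counts equalled those of bedtools 2.31.1 and were tested on simulated data. Intervals are exact (Clopper-Pearson) 95% intervals, or order statistics for medians, and cover counting error only. Which end of a cluster is anterior was checked against RefSeq gene order. The peaks described singly were to be the strongest and longest of each cluster, those scoring at least 1000, unmatched ones scoring at least 150, merged ones and those with the most changed rank; with 34 peaks in all, every one is given. Gene joins, HOX cofactor lists and marker genes of other cell types were not analysed here, for want of an hg19 annotation. Members and lists were chosen with earlier results of these data known.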

Additional observations from a re-analysis of the deposited data

How the results depend on the processing

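With 19 alternative settings, 104 values of 20 results were recomputed. Of these, 80 stayed within 1.5 times the reported number or length or within its interval, and 24 did not. Some of the 80 could not have moved, such as the parts without a cluster that had no peak in them. The intervals were also wide where peaks were few. The unmatched share of 5 Gy HOX peaks scoring at least 150 counted as within its interval at 57.1%, against 28.6% in the main setting. At scores of at least 100, the HOX peaks numbered 13 at 0 Gy and 10 at 5 Gy. The anterior parts then held 7 peaks over 5.83 kb at 0 Gy and 8 over 6.55 kb at 5 Gy, so that the order of the doses turned, and the posterior parts held 6 over 6.93 kb and 2 over 2.26 kb. Counting only peaks at or above their own list's median score, there were 12 HOX peaks at 0 Gy and 7 at 5 Gy, the latter over 7.46 kb. With at least 50% of each peak overlapping, the shared percentages were 30% (0 Gy) and 42.9% (5 Gy), against 41.9% and 55.4% of the lists. Leaving out a cluster was chosen after seeing the data, as were all alternatives on the unmatched strong peaks. Without HOXA, the anterior parts held 7 peaks over 4.99 kb at 0 Gy and 5 over 5.19 kb at 5 Gy. The posterior parts then covered 4.32 kb at 0 Gy and held 2 peaks over 0.94 kb at 5 Gy, and 0 of 3 strong 5 Gy peaks were unmatched. Without HOXB, the anterior parts held 7 peaks over 5.62 kb at 0 Gy and covered 4.85 kb at 5 Gy. Without HOXD, the posterior parts held 4 peaks over 5.38 kb at 0 Gy and 2 at 5 Gy. With peaks within 10 kb counted, 8.33% (0 Gy) and 0% (5 Gy) of the strong HOX peaks were unmatched. In all 6 settings tried for the parts, the posterior parts covered less at 5 Gy than at 0 Gy. Leaving out a cluster could not turn this order, because each posterior part with a peak covered less at 5 Gy. Without HOXB, which had no posterior peak, the lengths stayed at 8.32 and 3.20 kb. The order could have turned at scores of at least 100, and did not. With the middle of each cluster left out (6.63 and 2.72 kb) it could not turn either. Only HOXD had posterior peaks to lose there, and the posterior parts without HOXD covered 5.38 and 2.26 kb. Widening the clusters by 10 kb could change no number, because no peak lay within 50 kb outside any cluster. No paired analysis was possible because there is a single library in every group. Depth is unknown, which limits every comparison of the lists.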
